A study of Mus musculus with 2 samples.

Results

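HP1β peaks that lay in the introns of long genes were examined in mouse embryonic stem cells (ESCs). A peak of the deposited list was kept when its midpoint fell inside an annotated gene but in no exon of any transcript, not within 5 kb upstream or 1 kb on either side of any transcript start, and when the longest gene holding it spanned 100 kb or more. This left 312 of 1280 peaks (24.4%, 95% Wilson interval 22.1 to 26.8%) in 248 genes, which are 9.9% of the 2506 genes of that length with intron sequence that could hold such a peak. The study mapped HP1β on chromatin by ChIP-Seq in E14 ESCs, a line of the 129P2/Ola strain, with 1 library immunoprecipitated with an antibody against HP1β (Euromedex 1MOD-1A9-AS) and 1 library of input DNA. According to the labels, the cells of both libraries grew on gelatine in PowerStem medium with LIF. Each group held 1 library, so no value below has a replicate, and with no reads counted in the list the depth of a peak is unknown. Intervals cover the counting of peaks only, and no test between samples could be made.

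HP1β, encoded by Cbx1, is a small chromatin protein. Its chromodomain binds histone H3 methylated on lysine 9, and its chromoshadow domain forms dimers and recruits partner proteins. It is best known from compact heterochromatin around centromeres, and it is also found in gene bodies, where long introns make up most of the transcribed sequence of genes for adhesion molecules, ion channels and signalling proteins.

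The DNA at the strongest of these peaks varied in base composition. Each line gives 120 bases centred on the midpoint of a peak, on the plus strand of mm9, and the capitals mark CpG dinucleotides, the usual site of DNA methylation in mammals. The peaks shown are the 5 with the highest score, the highest peak of Sox5, the gene with the most peaks, and the peak of Syne2, the richest in CpG among the 10 highest, with a stretch 1 kb before it for comparison.
Gm16889, chr4:146784640-146784759: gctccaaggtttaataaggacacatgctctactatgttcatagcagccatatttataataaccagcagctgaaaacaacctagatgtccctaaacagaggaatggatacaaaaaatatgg
Gm13242, chr4:145149373-145149492: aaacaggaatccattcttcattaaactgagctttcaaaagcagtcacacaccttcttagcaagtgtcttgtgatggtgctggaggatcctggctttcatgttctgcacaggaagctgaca
Ube3c, chr5:29937714-29937833: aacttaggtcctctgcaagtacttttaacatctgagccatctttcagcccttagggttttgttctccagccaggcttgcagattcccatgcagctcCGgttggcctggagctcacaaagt
Adk, chr14:22132173-22132292: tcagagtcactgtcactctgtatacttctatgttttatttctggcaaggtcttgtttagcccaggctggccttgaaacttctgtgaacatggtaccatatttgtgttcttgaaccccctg
Cacna1c, chr6:119065538-119065657: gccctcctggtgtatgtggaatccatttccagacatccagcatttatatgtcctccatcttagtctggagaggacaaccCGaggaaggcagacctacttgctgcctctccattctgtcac
Sox5, chr6:144125349-144125468: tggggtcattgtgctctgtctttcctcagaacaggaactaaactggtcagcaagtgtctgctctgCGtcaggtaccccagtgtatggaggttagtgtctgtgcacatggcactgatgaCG
Syne2, chr12:77089967-77090086: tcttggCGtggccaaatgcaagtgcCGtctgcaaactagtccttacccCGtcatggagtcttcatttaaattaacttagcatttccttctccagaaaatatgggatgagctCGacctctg
Syne2 flank before the peak, chr12:77088681-77088800: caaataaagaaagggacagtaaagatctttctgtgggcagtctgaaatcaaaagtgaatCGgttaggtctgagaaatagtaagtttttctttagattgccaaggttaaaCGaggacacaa
The window of Gm16889 held 0 CpG and was 37.5% GC, and only 44.4% of the 50-mers of the whole peak occurred once in the genome. The window of Syne2 held 4 CpG, and its last 26 bases, from position 77090061 on, belong to a coding exon, so that this peak, whose midpoint was intronic, reached across a splice acceptor site. A CpG was present in the central 120 bases of 210 of the 312 peaks (67.3%), in 68.8% of the same windows over all 1280 peaks, and in 57.4% of 624 windows of that length taken 1 kb away from these peaks.

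Per length of sequence, introns of long genes held fewer peaks than introns of shorter genes and more than intergenic DNA. The 312 peaks lay in 553.6 Mb of such intron, 21.6% of the ungapped genome, a density of 0.564 peaks per Mb (exact Poisson 95% interval 0.503 to 0.630). Introns of shorter genes held 255 peaks at 0.895 per Mb (0.789 to 1.01). Exons and gene starts together held 236 peaks at 0.707 per Mb (0.620 to 0.803), and intergenic DNA held 477 at 0.344 per Mb (0.314 to 0.376). The density in long-gene introns was thus 0.629 times that in introns of shorter genes (exact interval 0.532 to 0.746) and 1.64 times that of intergenic DNA (1.42 to 1.89). With densities standardised to the GC content of the sequence the ratio to shorter genes was 0.694 (0.619 to 0.775, with the reference densities taken as fixed). Among peaks with a score of 40 or more it was 0.806 (0.499 to 1.32), an interval that includes 1.

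Among long genes the density fell with the length of the host gene, whereas among shorter genes it rose toward the limit. Genes under 25 kb held 39 intronic peaks at 0.663 per Mb (0.471 to 0.906), and those of 25 to 50 kb held 77 at 0.866 per Mb (0.684 to 1.08). The highest value was in genes of 50 to 100 kb, with 139 peaks at 1.01 per Mb (0.853 to 1.20). Genes of 100 to 200 kb held 141 peaks at 0.824 per Mb (0.694 to 0.972). In genes of 200 to 400 kb the 91 peaks gave 0.555 per Mb (0.447 to 0.682). Genes of 400 to 800 kb came to 0.387 per Mb (0.284 to 0.514, 47 peaks), and those of 800 kb or more to 0.340 per Mb (0.234 to 0.477, 33 peaks). The last class was 0.412 times as dense as the class of 100 to 200 kb (0.273 to 0.605), whereas the neighbouring classes of 400 to 800 kb and 800 kb or more had intervals that overlapped widely. Genes of 100 to 200 kb themselves did not differ from all shorter genes beyond counting error, at a ratio of 0.921 (0.744 to 1.14).

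**Figure D1:**
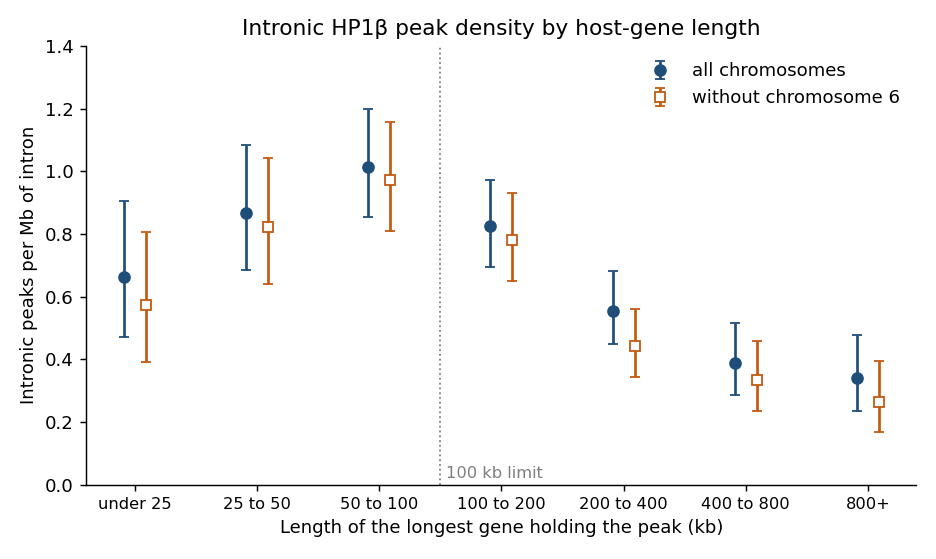
Intronic HP1β peaks per Mb of intron (vertical axis) by the length of the longest gene holding the peak in kb (horizontal axis), with exact Poisson 95% intervals, for all chromosomes (filled circles) and without chromosome 6 (open squares). Right of the dotted line at 100 kb the density falls from 0.824 to 0.340 per Mb, and without chromosome 6 from 0.782 to 0.262 per Mb.

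The introns of longer genes were also poorer in GC, at 42.6% in genes of 100 to 200 kb and 39.8% in those of 800 kb or more. Against the number expected from the GC content of the sequence, with the rates of all intronic peaks, the observed number was 1.18 times in the class of 100 to 200 kb and 0.615 times in the class of 800 kb or more. With the rates of the class of 100 to 200 kb alone, the observed number in the longest class was 0.486 times that expected. Its interval was 0.334 to 0.682, with those rates taken as fixed. The share of 50-mers that occur once was alike in the classes of 100 kb or more, from 91.8 to 92.6%. In length of unique sequence the longest class was 0.410 times as dense as that of 100 to 200 kb (0.272 to 0.603). The part of other sequence properties in this fall was not tested.

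The very longest genes held few peaks per Mb. Among the 20 longest genes, 6 held 9 peaks in 35.2 Mb of intron, or 0.256 per Mb (0.117 to 0.485). The share of hosts was higher among these 20 than the 9.9% over all 2506 long genes, so having no peak was not particular to them. Genes without a peak included Ptprd, a receptor tyrosine phosphatase of synapses (2270.7 kb), Dmd, which encodes dystrophin (2257.3 kb), Cntnap2, an adhesion molecule of the neurexin family (2241.3 kb), and Lrp1b, a lipoprotein receptor relative (2058.4 kb). For a single gene the limit is wide, since a count of 0 in Ptprd allows up to 1.395 peaks per Mb by the limit of 3 counts. The longest hosts were Gm20388 (4434.9 kb, 2 peaks), Fgfr2, a fibroblast growth factor receptor (3009.1 kb, 1 peak), and Pde4d, a cAMP phosphodiesterase (1503.5 kb, 1 peak). The span of Gm20388 rests on 1 annotated transcript. One of its peaks lay in an annotated intron of 4384.4 kb, 795691 bp from the nearest exon of that gene. Arfip1, a host of 1391.4 kb, had an annotated intron of 1202.6 kb. The annotated spans of Gm20388, Fgfr2 and Arfip1 may come from read-through or fused gene models, which was not tested. Without these genes, the longest class was 0.363 times as dense as that of 100 to 200 kb (0.231 to 0.551).

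The limit of 100 kb fell between genes of similar length. The nearest intronic peaks below it lay in Efcab5 (99.1 kb, score 33.36), Rbm6 (99.3 kb, 30.38) and Rnf13 (99.4 kb, 41.37). The nearest above it were in Ccdc18 (100.03 kb, 46.86), Epc2 (100.46 kb, 30.78) and Nup93 (100.47 kb, 39.59). Of the 312 midpoints, 292 lay in 1 gene only, 15 in 2 genes and 5 in 3 or more. Protein-coding genes were the hosts of 297, lincRNA genes of 6, other noncoding transcripts of 6 and pseudogenes of 3. Of the 2506 long genes 2371 were protein-coding, and these held 530.8 of the 553.6 Mb of intron.

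The score of a peak in the list is 10 times the negative log10 of its MACS p-value, which starts at 30 because of the cutoff of 0.001. Peaks in introns of long genes had a median score of 33.14 (30.02 to 73.48), next to 33.21 in introns of shorter genes and 33.5 between genes. A score of 40 or more was reached by 47 of them (15.1%, 11.5 to 19.5%) and by 11.8% of peaks in introns of shorter genes, a difference of 3.30 percentage points whose interval ran from -2.45 to 8.85. Only 8 reached 50, against 1 peak in introns of shorter genes (difference 2.17 points, -0.02 to 4.61). Those 8 were 2.56% of the 312, near the 2.10% of intergenic peaks and the 2.12% of peaks in exons and at gene starts. At 40 or more the shares of these other classes were 14.5% between genes and 11.9% in exons and at gene starts. No trend of the score with the length of the host was detectable. The share at 40 or more was 14.9% in genes of 100 to 200 kb and 18.2% in genes of 800 kb or more, with intervals of 9.95 to 21.7% and 8.61 to 34.4%. Their median width was 259.5 bp (91 to 936 bp), and that of peaks in introns of shorter genes was 247 bp.

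**Figure D2:**
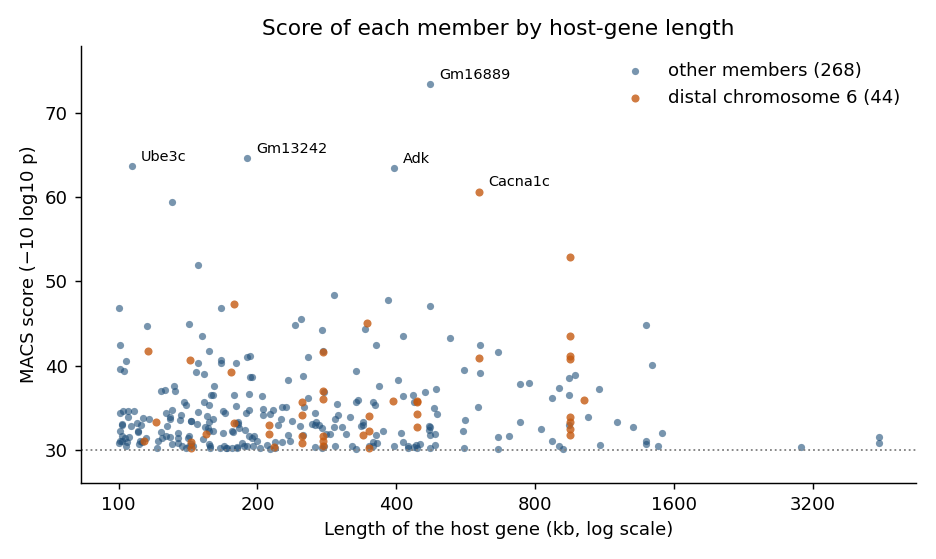
MACS score (vertical axis, from the p-value as above) of each of the 312 peaks by the length of its host gene in kb (horizontal axis, log scale), with the 44 peaks of distal chromosome 6 in orange, the other 268 in blue and the lowest possible score of 30 as a dotted line. Most peaks lie close to 30 at every gene length, and the 5 highest are named.

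The highest scores belonged to genes of unlike function. The highest, 73.48, was at chr4:146784551-146784847 in the first intron of the lincRNA gene Gm16889, and a second peak of this gene scored 47.05. Gm13242, also on distal chromosome 4, followed with 64.63 for a peak 936 bp wide, the widest of the 312. Ube3c, which encodes a HECT ubiquitin ligase, held a peak of 63.69 in intron 10, 3675 bp from an exon. Adk, the adenosine kinase gene, had one of 63.48 that was 764 bp wide. In Cacna1c, the pore subunit of an L-type calcium channel, the score was 60.68, and in H60b, a ligand of the immune receptor NKG2D, it was 59.46. Sox5 (52.91) and Zranb3, a DNA annealing helicase of stalled replication forks (51.92), completed the peaks at 50 or more. Syne2, which encodes the nuclear envelope protein nesprin-2, reached 48.39 and Robo1, a receptor for the axon guidance factor Slit, 47.79. After Gm13242 and Adk, the widest of the 312 peaks was one of 709 bp in the dynein gene Dnahc8, with a score of 38.73.

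Most host genes held a single peak. Of the 248 hosts, 208 had 1, 27 had 2 and 13 had 3 or more. The genes with the most peaks are named here because of that number, so their densities are only a description. Sox5, a SoxD transcription factor of cartilage and neurons, had 8 peaks with scores between 31.79 and 52.91, spread over 749.8 kb and 6 introns, or 9.01 per Mb (3.89 to 17.8). Erc1, a scaffold of presynaptic active zones, had 6 over 160.4 kb, or 23.3 per Mb (8.55 to 50.7), with scores from 30.43 to 41.61. The noncoding gene 2610005L07Rik on chromosome 8 had 5, all within its intron 9 and 4 of them within 4 kb. Only 5.19 to 64.3% of the 50-mers in those 5 peaks were unique in the assembly, and the part of such copies in this cluster was not tested. Grin2b, an NMDA receptor subunit, had 4 peaks with scores of 32.64 to 35.78, in introns 5 and 12.

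The other 9 genes had 3 peaks each. They were Gm13242, Arfip1, Cdkal1 (a tRNA-modifying enzyme), Ptpn4 (a tyrosine phosphatase), Thsd7b, Pde3a (a cAMP phosphodiesterase), Pcca (a subunit of propionyl-CoA carboxylase), Ano2 (a calcium-activated chloride channel) and Bcas3. The 3 peaks of Ptpn4 scored 33.15, 40.29 and 35.19 and those of Cdkal1 41.59, 30.07 and 31.46, so that in both genes 1 peak stood above the rest. The 3 of Bcas3 stayed between 30.24 and 32.65. Between neighbouring peaks of the same gene (64 pairs) the median distance was 56.7 kb (0.942 to 737.1 kb), and 10 pairs were closer than 10 kb. The closest 3 pairs were those of 2610005L07Rik, followed by Dnahc8 at 1.47 kb and Erc1 at 2.75 kb.

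Genes grouped by function were hosts at varied shares, whose intervals all included the share of all long genes. Of 113 genes of neuronal adhesion and the synapse, 13 had a peak (11.5%), and of 82 ion channel and receptor genes 9 (10.98%). The background over all long genes was 9.9%. Kinases and phosphodiesterases were hosts in 15 of 116 cases (12.9%). Lower shares were found for transcription factors (6 of 102, 5.88%, interval 2.72 to 12.2%), chromatin regulators (4 of 78, 5.13%, 2.01 to 12.5%) and genes of RNA binding and splicing (2 of 37, 5.41%, 1.495 to 17.7%), and each interval includes the background. Fragile site genes were hosts in 6 of 32 cases (18.8%, 8.89 to 35.3%). None of the 5 pluripotency genes of this length was a host (interval 0 to 43.4%). They had only 0.650 Mb of intron that could hold a peak, too little to tell their share from the background.

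Per Mb of intron the lists spread more widely, and they also differed in gene length. Genes of neuronal adhesion and the synapse, with a median length of 550.6 kb, held 0.274 peaks per Mb (0.167 to 0.423), where all long genes, with a median of 168.5 kb, held 0.564. Without chromosome 6 this list had 11 of its 20 peaks left, at 0.167 per Mb (0.083 to 0.299). Genes of common fragile sites, the longest list with a median of 943.6 kb, held 0.192 per Mb (0.071 to 0.419). Kinases and phosphodiesterases held 0.664 per Mb (0.393 to 1.05). The 0.547 per Mb of ion channels and the 0.527 per Mb of transcription factors came mostly from chromosome 6, since without it they were 0.186 (0.051 to 0.477) and 0.181 per Mb (0.049 to 0.464), while all long genes then stood at 0.494.

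Within the lists, single peaks of modest score prevailed. After Robo1, the adhesion genes with the highest scores were Ptprk (43.24), Magi1 (42.45) and Erc1 (41.61). Among channels and receptors, Cacna1c was followed by Grin2b (35.78), the calcium release channel Itpr2 (35.75) and Cacna1a (35.02). The transcription factors were Sox5, Foxp1 (44.29), Zfp423 (35.43), the E2F partner Tfdp2 (32.86), Npas3 (32.45) and Trps1 (31.07). The 4 chromatin regulators were Nipbl, which loads cohesin (2 peaks, up to 38.95), the remodelling proteins Ep400 (32.85) and Chd9 (30.9), and Auts2 (30.53). Upf2, a factor of nonsense-mediated decay (31.5), and Zcchc7 (30.18) were the RNA-binding hosts. The leading kinase and phosphodiesterase hosts were Pik3c2g (45.01), the neurotrophin receptor Ntrk2 (39.39), Tnik (36.36) and Pde3a (35.64). Among fragile site genes Vps13b (39.46), Sdk1 (38.88), Cdh13 (33.89) and Immp2l (32.66) came first.

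Along the host gene the peaks were spread evenly. When genes were cut into 5 parts of equal length from the start, they held 66, 63, 66, 59 and 58 peaks, and the ratio of density inside to outside a part lay between 0.925 and 1.08, with every interval including 1. The first intron held 46 peaks (14.7%, 11.2 to 19.1%) and 18.03% of the bases that could hold one. The orientation of the gene made no visible difference, with 164 peaks (52.6%) in genes on the plus strand, which hold 51.6% of the bases.

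Peaks lay closer to exons than the bases of these introns did. The median distance to the nearest exon of the host was 7592.5 bp (9 to 795691 bp), where the bases that could hold a peak had a median near 11220 bp. Within 1 kb of an exon were 52 peaks (16.7%, 12.9 to 21.2%) and 11.5% of bases, a density 1.54 times that of the remaining bases (1.12 to 2.09). Within 5 kb were 131 peaks (42.0%, 36.6 to 47.5%) and 33.0% of bases, and within 10 kb 183 peaks (58.7%) and 48.2% of bases. Introns of 50 kb or more held 116 peaks (37.2%, 32.0 to 42.7%) but 52.9% of bases.

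**Figure D3:**
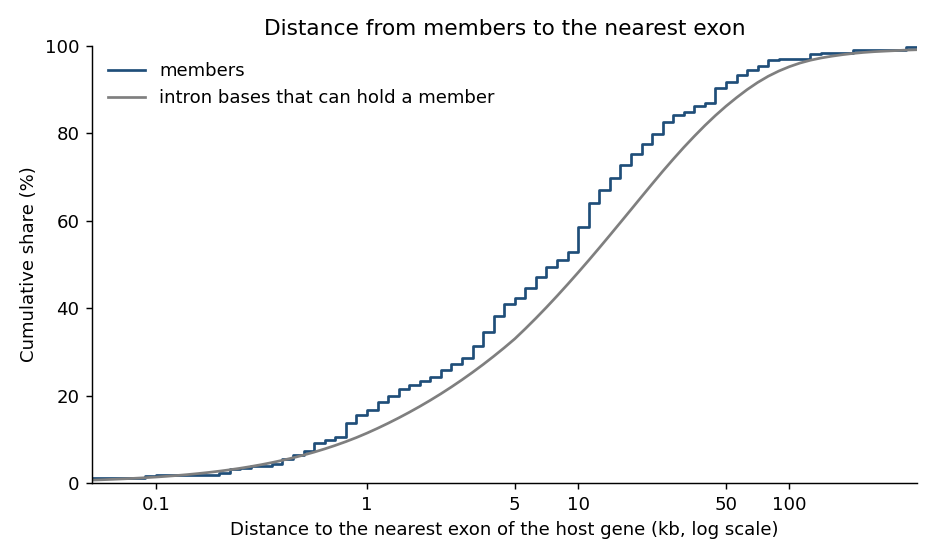
Cumulative share in percent (vertical axis) of the 312 peaks (stepped line) and of the intron bases that could hold one (smooth line) by distance to the nearest exon of the host gene in kb (horizontal axis, log scale). At 5 kb the lines stand at 42.0 and 33.0%, and at 10 kb at 58.7 and 48.2%.

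Shorter hosts had both more peaks per Mb and more of their bases near exons. With the bases weighted to the length classes of the peaks, 13.5% of bases were expected within 1 kb, 37.4% within 5 kb and 53.5% within 10 kb. Each lay inside the interval of the observed share, which was 12.9 to 21.2% at 1 kb, 36.6 to 47.5% at 5 kb and 53.1 to 63.98% at 10 kb. Introns of 50 kb or more still held fewer than their weighted share, 37.2% (32.0 to 42.7%) against 46.4%. By class, the shares within 5 kb were equal in genes of 100 to 200 kb, at 49.6% of peaks and of bases, and differed in genes of 200 to 400 kb, at 47.3% (37.3 to 57.4%) of peaks and 34.7% of bases. The first intron held a smaller share of peaks than of bases in genes of 200 to 400 kb (8 of 91 peaks, 8.79%, 4.52 to 16.4%, and 17.7% of bases). It did not in the longer classes, with 17.0% (8.89 to 30.1%) of peaks and 16.4% of bases at 400 to 800 kb and 24.2% (12.8 to 41.0%) and 16.3% at 800 kb or more. Peaks within 100 bp of an exon, named after their values were seen, were those of Oxr1 (9 bp, score 43.56), the kinase gene Ulk4 (33 bp), Syne2 (35 bp), Dnahc8 (43 bp), Cdc73 (87 bp) and Osbpl6 (97 bp).

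The peaks were richer in GC than the introns around them. Their mean GC content was 46.7% (SD 5.11, n = 312 peaks), that of the intron sequence that could hold one 41.5%, and that of flanks of equal width 1 kb away 42.1%. The peak exceeded its flanks in 246 of 312 cases (78.8%), on average by 4.61 percentage points (SD 6.20). Peaks elsewhere showed the same, with means of 47.0% in introns of shorter genes and 47.0% between genes, and an excess over flanks of 4.97 and 4.49 points. Density rose with GC content, from 0.049 per Mb (0.016 to 0.114) in sequence under 35% GC to 1.05 per Mb (0.800 to 1.36) at 50 to 55%, and was 0.874 per Mb (0.452 to 1.53) above that. Whether the GC content of fragments affected their recovery in the library was not tested.

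**Figure D4:**
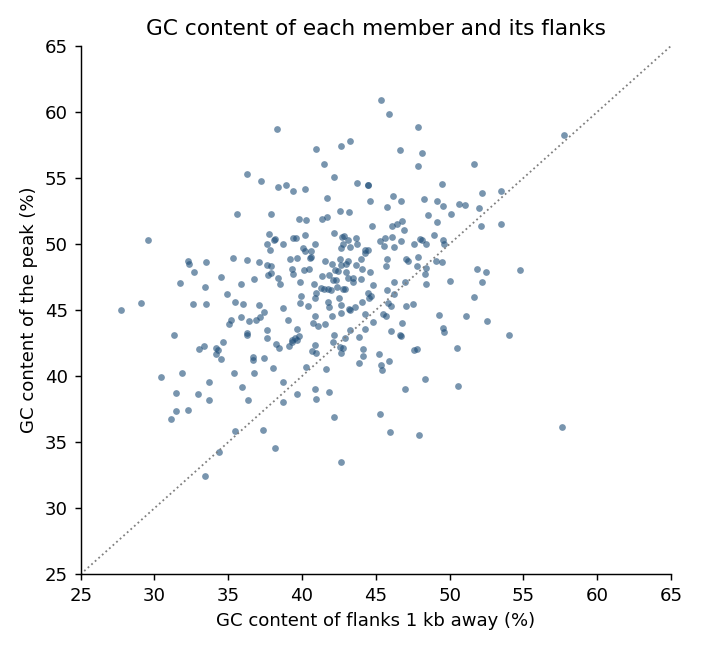
GC content in percent of each of the 312 peaks (vertical axis) and the mean of its flanks 1 kb away (horizontal axis), with equality as a dotted line. Points above the line are the 246 peaks that were richer in GC than their flanks.

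CpG dinucleotides were more frequent in the peaks in step with GC. The peaks held 10.5 CpG per kb, where the intron sequence had 7.85, but relative to the number expected from their C and G content both were low, at 0.195 and 0.182. The median was 2 CpG in a peak and the highest count 15, and 42 peaks had none. Sequence with many copies in the genome was rare. On average 1.95% of the 20-mers of a peak occurred at least 100 times in the genome, against 9.29% of the intron sequence, and 229 peaks (73.4%) had no such 20-mer. Peaks elsewhere showed the same, with 1.84 and 8.73% in introns of shorter genes and 4.80 and 15.3% between genes. The authors kept only uniquely aligned reads, which limits the calling of peaks in repeated sequence. These values therefore cannot show whether HP1β binds such sequence. All 50-mers were unique in 286 peaks (91.7%), and fewer than 50% were in 8, of which 4 were peaks of 2610005L07Rik. In 2 of the 8, in C130026I21Rik and in the neuroligin gene Nlgn1, no 50-mer occurred only once on the reference. A run of 6 CA units, CACACACACACA or its complement TGTGTGTGTGTG, in either phase, was found in 11 peaks (3.53%) and in 4.20% of 250 bp bins of the same introns.

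By chromosome, chromosome 6 stood apart, and not only for peaks of this kind. Of all 1280 peaks in the list it held 168, and chromosome 1, the next, held 117. Of the 312 peaks, chromosome 6 held 57 at 1.53 per Mb of intron (1.16 to 1.99). The other autosomes lay between 0.222 per Mb (chromosome 19, 3 peaks) and 0.688 per Mb (chromosome 1, 29 peaks). From position 105000001 to its end, chromosome 6 had 44 peaks in 22 genes at 4.37 per Mb (3.18 to 5.87), and the rest of it had 13 at 0.480 (0.256 to 0.821), close to the 0.494 of all other chromosomes. This stretch was chosen because it was known to be rich in peaks, so its density is a description. Its hosts included Sox5, Erc1, Grin2b, Pde3a, Ano2, Cacna1c and the Wnt co-receptor gene Lrp6, so that 5 of the 13 genes with 3 or more peaks lay there. Chromosome X had no peak of this kind in 28.7 Mb of intron, which allows up to 0.105 per Mb by the limit of 3 counts and 0.129 per Mb by the upper end of the exact Poisson interval. Long genes on it, such as Dmd and Il1rapl1, were thus without a peak. The whole list had 11 peaks on X.

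**Figure D5:**
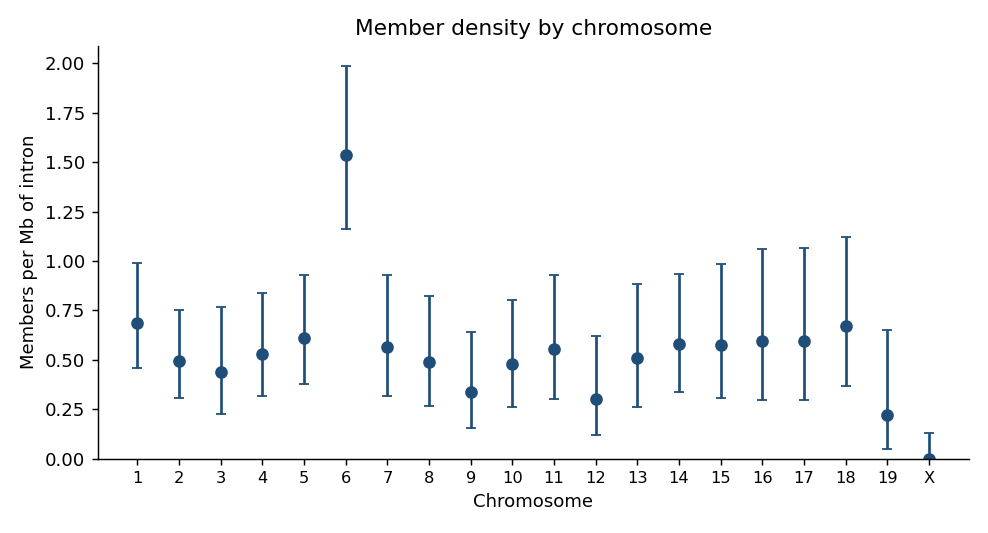
Peaks in introns of long genes per Mb of such intron (vertical axis) by chromosome (horizontal axis), with exact Poisson 95% intervals. Chromosome 6 is at 1.53 per Mb and X at 0, and chromosome Y is left out because it has only 0.277 Mb of such intron.

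The fall with gene length above 100 kb was also found without chromosome 6. The density was then 0.782 per Mb in genes of 100 to 200 kb (0.651 to 0.931), 0.443 in those of 200 to 400 kb (0.344 to 0.561) and 0.262 in those of 800 kb or more (0.166 to 0.393). The longest class stood at 0.335 times the class of 100 to 200 kb (0.205 to 0.526). The density in all long-gene introns, 255 peaks at 0.494 per Mb, was then 0.586 times that in introns of shorter genes (0.488 to 0.704).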

How the data were processed

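HP1β ChIP-Seq of E14 ESCs comprised 1 ChIP and 1 input library. The authors aligned unique reads of at most 1 mismatch to mm9 with Bowtie; MACS 1.4 was run with a p-value limit of 0.001, and the use of the input in it is not given in the sources used here. The score in the deposited list is the negative log10 of the MACS p-value, multiplied by 10. Peaks were called on 1 library, and no read numbers were given. Peaks were placed by midpoint on GENCODE vM1 genes (mm9, coordinates from 1), the longest gene holding a midpoint being its host, and all eligible bases were classed by the same rule. GC content was read in 250 bp bins in classes of 5 points, k-mer copies (50 and 20 bases) at every 1000th position. Densities have exact Poisson intervals, with 3 counts as the limit beside a count of 0, ratios Clopper-Pearson, shares Wilson and differences Newcombe intervals (95%). The interval functions were tested on simulated data. Named genes were hosts of the 10 highest and 3 widest peaks, those with 3 or more peaks, the 3 longest hosts and, for each of 9 lists, the highest-scoring hosts (4 examples; 1 list is not reported here), and any others were chosen after their values were seen. The peaks and lists were chosen with earlier results of these data known. Calculations used scipy 1.17.1, numpy 2.4.6 and pandas 2.3.3 under Python 3.11.15, and figures matplotlib 3.10.9. Alternatives were other length limits, scores, annotations, chromosomes and corrections for GC and unique sequence.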

Additional observations from a re-analysis of the deposited data

How the results depend on the processing

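Of 63 alternative values for 10 results, 48 stayed close to the reported value. Close means within 1.5 times for the number of peaks and within the interval for shares and ratios. For the median score and the mean GC values it means within the SD over single peaks, a wide limit that a mean or median seldom leaves. The number of peaks in introns of long genes was 47 (27.01% of such peaks) at a score of 40 or more and 8 (33.3%) at 50 or more. It was 171 (13.4%) with a length limit of 200 kb, and 451 (35.2%) with a limit of 50 kb. Such introns made up 14.95% of the ungapped genome with the limit of 200 kb, 21.64% with 100 kb and 26.99% with 50 kb. The share of peaks was thus below the share of the genome only with the limit of 200 kb. The density ratio to introns of shorter genes was 0.806 at a score of 40 or more, 0.832 with a limit of 50 kb, 0.515 with a limit of 200 kb and 0.921 for hosts of 100 to 200 kb alone. It exceeded 1 at a score of 50 or more (4.12, interval 0.552 to 183), where only 1 peak was left in introns of shorter genes, and with intergenic DNA as the comparison (1.64), which is another region. For the longest class against hosts of 100 to 200 kb, the ratio stayed between 0.335 and 0.503 under the 6 alternatives, all added after the data were seen, and its interval included 1 only at a score of 40 or more (0.166 to 1.29). The share within 5 kb of an exon was 36.2% at a score of 40 or more and 49.6% in hosts of 100 to 200 kb. No paired analysis was possible because each group held 1 library. With 1 library and no read numbers, neither replicate error nor depth could be assessed.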
